A study of Mus musculus with 6 samples.

Results

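Among the CD45+ cells sorted from brain hemispheres bearing U87 xenografts, 11746 barcodes were microglia that kept a high share of P2ry12 transcripts and carried little Apoe and no Spp1. They are called low-Apoe homeostatic microglia here. They made up 29.1% of all 40411 barcodes of the matrix and 54.3% (exact binomial 95% interval 53.7 to 55.0%) of the 21615 microglial barcodes with at least 2000 unique molecular identifiers (UMIs, tags that count each captured transcript once). Members were chosen on measured values. Each had over 200 and at most 2500 genes, under 5% of UMIs on mitochondrial genes, over 3% of UMIs on Cst3, C1qa, C1qb, C1qc, P2ry12 and Tmem119 together, P2ry12 at 0.3% of UMIs or more, Apoe under 1% and Spp1 at 0. The other 9869 microglial barcodes of that depth served as the comparison.

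Microglia are the resident macrophages of the brain. In the undisturbed tissue they are known for purine receptors that sense nucleotides from damaged cells, and for a gene program that depends on TGF-beta and on transcription factors such as Sall1. In disease and near tumors they are known to lose part of this program and to take up genes of lipid handling, phagocytosis and inflammation, Apoe among them.

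The host strain, SCID, has no T or B lymphocytes, and U87 is a long-established line from a human glioma. Female SCID mice, 6 to 8 weeks old by the labels, received 50000 U87 cells that carried either an IL-33 construct (3 mice, taken 3 weeks after implantation) or the empty vector pcDNA 3.1 (3 mice, taken 6 weeks after implantation), so every mouse bore a tumor, and the effects of IL-33 and of the time point cannot be told apart. CD45+ cells of the tumor-bearing right hemisphere were sorted after a Percoll gradient, so the location of a cell relative to the tumor is not known, and 3′ single-cell libraries were made. The 6 libraries lie in a single matrix and differ by a barcode suffix. Groups were taken only from the sample labels, which do not name the suffixes. The libraries were therefore analysed as 1 pooled sample of both groups, the suffixes were not assigned to a group, and IL-33 and pcDNA xenografts were not compared here. Differences between suffixes below may hold differences between the groups. No test was applied, because the members were chosen from the same counts.

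The label of homeostatic microglia was first set against markers. Gpr34 and P2ry13, the markers that no limit used, were higher in the members than in the other microglial barcodes in 6 of 6 suffixes. So were P2ry12, Tmem119 and Cst3, which are part of the limits and therefore no check of the label. Gpr34 and P2ry13 were themselves named as markers with earlier results of these data known. They describe the label and do not test it. Most defining markers of other cells, taken as short sets of genes, were scarce. For border-associated macrophages, Pf4, Cd163 and Lyve1 were at 0 UMIs and the summed level of 5 markers was 1.02 counts per 1000000 UMIs (CPM), against 9.19 CPM in the other barcodes. Monocyte markers (Ccr2, Ly6c2, Plac8 and Chil3, led by Ccr2) summed to 10.0 against 30.6 CPM, and NK markers (Gzma, Nkg7 and Ncr1, led by Gzma) to 16.1 against 49.3 CPM. Granulocyte markers (S100a8, S100a9, Ngp and Camp, led by S100a8) summed to 62.8 against 475 CPM. They varied by library, from 2.54 to 231 CPM in the members and from 11.7 to 1265 CPM in the others, and suffix 3 went the other way, with 231 CPM in the members and 11.7 CPM in the others. Of the neural and glial markers, Aqp4, Mog, Snap25 and Syt1 were at 0 UMIs and the 6 genes summed to 1.40 CPM. The sum for endothelial and mural markers, led by Pecam1 with Rgs5 at 0, was higher in the members in 6 of 6 suffixes, at 9.36 against 5.69 CPM. Those of dendritic cells and of lymphocytes were 1.83 and 0.331 CPM. The choroid plexus transcript Ttr was at 231 CPM in the members and 187 CPM in the others. This order came from suffixes 4 and 5, where the sum of choroid plexus markers was 419 against 83.1 and 312 against 158 CPM, and the members were lower in the other 4 suffixes.

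The libraries were not alike. Suffix 5 stood apart in depth, with a median of 1536 UMIs over all its barcodes against 2321 to 3503 in the remaining suffixes, although its members had a median of 3174 UMIs, within the range of the other suffixes (2788.5 to 3744.5). Suffixes also had barcode sequences in common. The same sequence stood under more than 1 suffix for 3.32% of members, 10.7% of the other microglial barcodes of at least 2000 UMIs and 78.4% of the barcodes under 2000 UMIs that passed the filters, and 68 sequences belonged to members of more than 1 suffix. Values without these barcodes and without each suffix are given beside the share of members and the count of genes called.

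Of the genes that carry the label, P2ry12 and P2ry13 lie near each other on chromosome 3, and the others lie on separate chromosomes. By the GENCODE M21 annotation of GRCm38, P2ry12, the ADP receptor of microglial processes, lies on the minus strand at chr3:59216272-59262871, and P2ry13, a second ADP receptor, lies on the same strand at chr3:59207892-59210882. Gpr34, a receptor for lysophosphatidylserine, lies at chrX:13632089-13640858 on the plus strand. Tmem119, a membrane protein used to tell microglia from other macrophages, lies at chr5:113793729-113800516, and Cst3, the secreted protease inhibitor cystatin C, lies at chr2:148871722-148875692, both on the minus strand. The 250 bases upstream of the RefSeq start site (GRCm38.p6, gene strand, 5′ to 3′) are shown for the 3 of these genes matched in the RefSeq promoter table, because these transcripts are higher together in the members. The windows are chr3:59262986-59263235 for P2ry12, chr3:59210883-59211132 for P2ry13 and chr2:148875513-148875762 for Cst3. The RefSeq and GENCODE starts differ for P2ry12 and Cst3. Most of the Cst3 window lies inside the GENCODE gene given above, and the P2ry12 window begins some way outside its GENCODE gene. Capitals mark GAGGAA, the core of the sites of the myeloid factor PU.1, searched on both strands with no other motif.
P2ry12: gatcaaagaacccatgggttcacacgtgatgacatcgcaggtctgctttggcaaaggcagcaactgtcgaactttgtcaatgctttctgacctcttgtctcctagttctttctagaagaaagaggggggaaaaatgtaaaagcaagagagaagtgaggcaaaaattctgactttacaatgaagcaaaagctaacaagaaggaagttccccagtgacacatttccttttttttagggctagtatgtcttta
P2ry13: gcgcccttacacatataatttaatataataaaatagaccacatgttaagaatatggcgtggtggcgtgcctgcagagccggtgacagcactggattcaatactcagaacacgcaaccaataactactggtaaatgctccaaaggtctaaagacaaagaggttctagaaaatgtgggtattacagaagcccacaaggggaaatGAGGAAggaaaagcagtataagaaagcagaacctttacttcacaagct
Cst3: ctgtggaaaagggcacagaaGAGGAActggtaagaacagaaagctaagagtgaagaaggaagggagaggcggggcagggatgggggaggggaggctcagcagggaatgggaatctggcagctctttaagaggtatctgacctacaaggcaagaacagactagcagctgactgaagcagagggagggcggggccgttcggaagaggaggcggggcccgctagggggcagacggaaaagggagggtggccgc
The letters occur once on the gene strand of P2ry13, beginning 48 bases before the RefSeq start. They occur once on that of Cst3, beginning 230 bases before its RefSeq start, a distance that would be shorter from the GENCODE start. They do not occur in the window of P2ry12. Of 32851 upstream windows of the same length in the RefSeq table, 7639 (23.3%) hold them on either strand.

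The share of members differed widely between libraries. Of the microglial barcodes of at least 2000 UMIs, 33.2% (95% interval 31.4 to 35.1%) were members in suffix 5, the lowest, and 69.5% (67.4 to 71.4%) in suffix 3, the highest. The remaining shares were 43.6% in suffix 4, 51.4% in suffix 6, 59.3% in suffix 2 and 64.0% in suffix 1, so the 6 exact binomial intervals, which cover counting error only, did not overlap. The barcodes outside the members fell into 3 classes. With Spp1 at 0 and Apoe at 1% or more there were 4009 barcodes, 10.6 to 29.0% of a suffix. With at least 1 UMI of Spp1, the osteopontin gene, there were 2293 barcodes, 2.32 to 18.4% of a suffix. The last 3567 had Spp1 at 0 and Apoe under 1% but P2ry12 under 0.3%, and took 12.5 to 20.9% of a suffix, the narrowest range of the classes. Without the barcodes whose sequence stood under more than 1 suffix, members were 56.3% of the microglial barcodes, and leaving out 1 suffix at a time gave 52.1 to 57.2%.

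**Figure D1:**
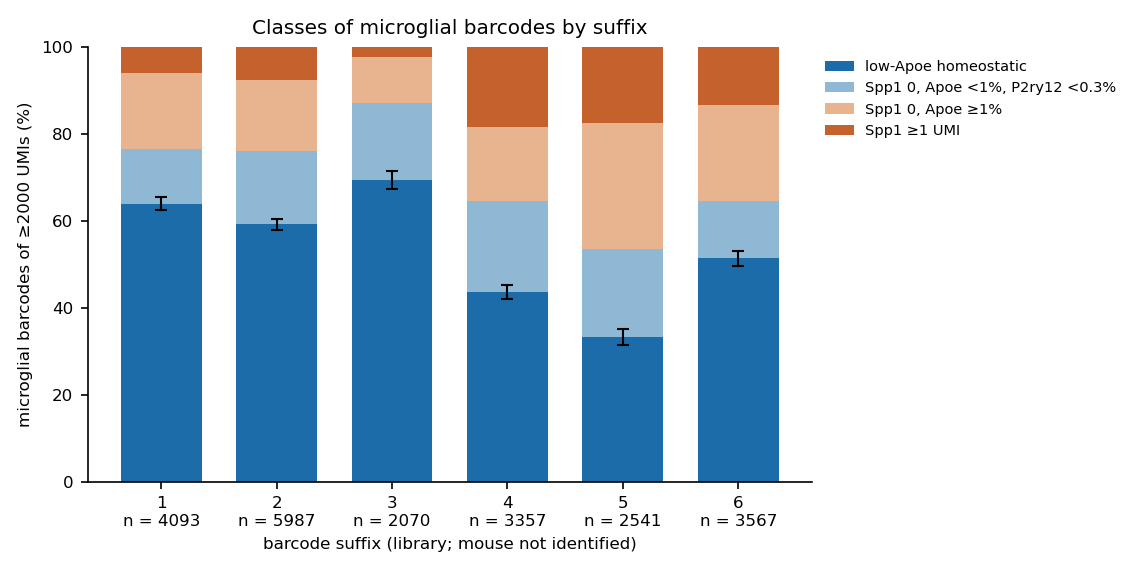
Share of microglial barcodes of at least 2000 UMIs (%, y axis) in 4 classes for each barcode suffix (x axis, with the number of barcodes); error bars are exact binomial 95% intervals of the members' share. Members take from 33.2% in suffix 5 to 69.5% in suffix 3.

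Depth was close between the sets, with a median of 3156 UMIs and 1322 genes in the members against 3462 UMIs and 1400 genes in the others. In all, the members held 39316115 UMIs and the others 36578545. In a member the median share of UMIs was 0.507% for P2ry12 and 0.191% for Apoe, and 1381 members had no Apoe UMI. In the other microglial barcodes these medians were 0.214% and 1.15%. The limits cut through a continuous range rather than a gap. The 1335 members with P2ry12 from 0.3% to under 0.35% had 1622 CPM of Gpr34 and 595 CPM of the chemokine Ccl2. The 1131 barcodes with P2ry12 from 0.25% to under 0.3% that met the other limits had 1527 and 753 CPM. At the Apoe limit, the 345 members from 0.9% had 1857 CPM of Gpr34 and 496 CPM of Ccl2, and the 274 barcodes from 1% to under 1.1% had 1889 and 425 CPM. The 296 barcodes with 1 UMI of Spp1 that met the other limits had 1833 CPM of Gpr34 and 711 CPM of Ccl2, against 2024 and 382 CPM in all members. The 568 members just above the limit of 2000 UMIs had 2422 CPM of Gpr34, and the 402 barcodes just under it that met the other limits had 2352 CPM. For the upper limit on genes, the 157 members closest to it had 1624 CPM of Gpr34 and the 81 barcodes just above it had 1604 CPM. Only 25 members had 3 to 4% of UMIs on the 6 microglial genes, and 2 barcodes just under 3% met the other limits. Ccl2 was chosen for these sentences after its values were seen.

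P2ry12 and Apoe are given as a description, since both chose the members. P2ry12 stood at 4951 to 5581 CPM in the members (lowest to highest suffix, median 5254) and at 2018 to 2718 CPM (median 2589) in the others. Apoe, which carries lipids between cells, stood at 2393 to 3801 CPM (median 2956) in the members and at 10399 to 25663 CPM (median 19729) in the others. The ranges of the 6 suffixes did not overlap for either gene. Apoe in the other barcodes was lowest in suffix 3, the library with the largest share of members, and highest in suffix 5, the library with the smallest.

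Gpr34 and P2ry13, which no limit used, lay on the same side as P2ry12. Gpr34 was at 1743 to 2183 CPM in the members (median 1980) and at 905 to 1430 CPM in the others (median 1177), a pooled ratio of 1.74 (exact 95% counting interval 1.72 to 1.76). P2ry13 was at 688 to 833 CPM (median 761) against 353 to 576 CPM (median 442), a ratio of 1.76 (1.73 to 1.79). For both genes the ranges of the suffixes did not overlap. Tmem119, 1 of the 6 genes that set the microglial class, was at 2550 to 3282 CPM (median 2826) against 1597 to 2548 CPM (median 1955), ranges that just missed each other. Cst3, another of the 6, was at 71875 to 81320 CPM (median 74231) against 50186 to 67847 CPM (median 59149). Its ratio of 1.32 ran from 1.06 to 1.48 over suffixes and was least in suffix 3. C1qa, C1qb and C1qc, the chains of complement C1q and the remaining genes of the class, were lower in the members in 6 of 6 suffixes, with ratios of 0.817, 0.777 and 0.751.

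**Figure D2:**
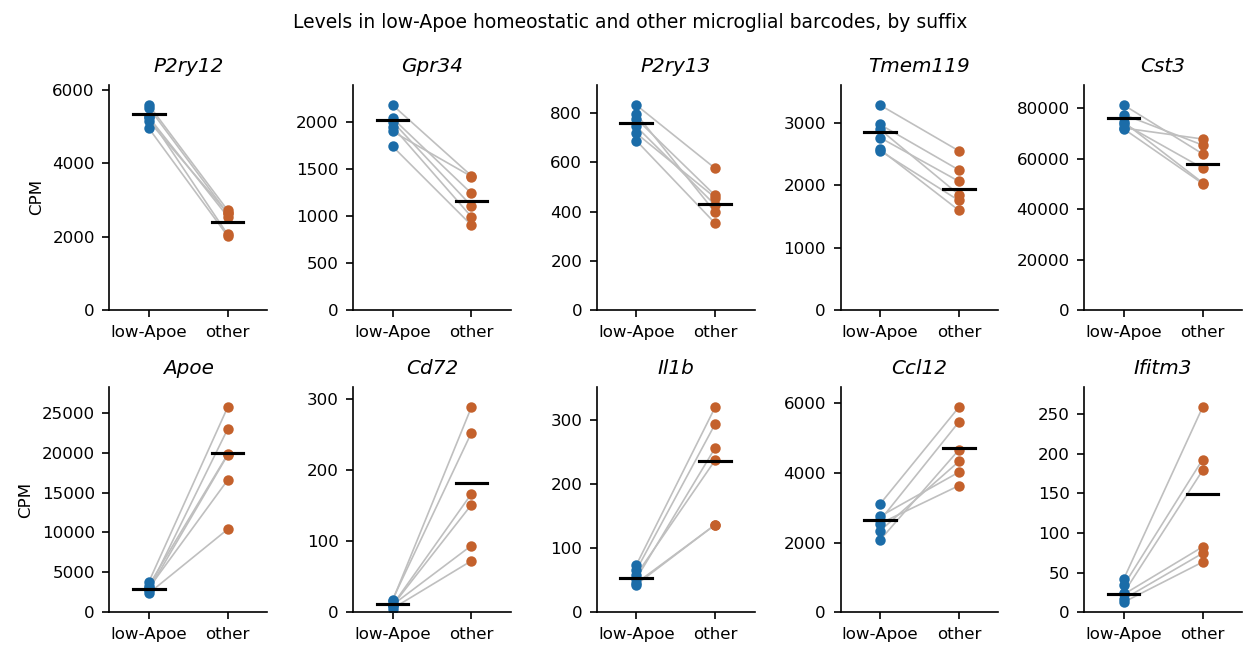
Level (CPM, y axes from 0) of 10 genes in low-Apoe homeostatic and other microglial barcodes; each pair of joined points is 1 barcode suffix (n = 6) and black bars are pooled levels. Members of all 6 suffixes lie above the others for P2ry12, Gpr34, P2ry13, Tmem119 and Cst3 and below them for Apoe, Cd72, Il1b, Ccl12 and Ifitm3.

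The share of barcodes with a transcript followed the levels. After each barcode was thinned to 2000 UMIs, which left out none, Gpr34 was found in 95.8% of members and 81.5% of the others, and P2ry13 in 75.8% and 54.7%. In 63 NK-like barcodes, which should lack these genes and were thinned alike (median depth 2711 UMIs), the shares were 23.8% and 9.52%. Before thinning, Gpr34 was found in 98.7% of members, 91.8% of the others and 30.2% of the NK-like barcodes. Sox4 was found in 38.8% of members, 24.2% of the others and 4.76% of the NK-like barcodes. On the lower side, Il1b, the gene of interleukin-1 beta, was found in 6.998%, 21.2% and 1.59%. Cd72 was found in 1.88% of members, 18.5% of the others and 19.0% of the NK-like barcodes. The NK-like share was far above that of the members, so these barcodes give no background share for Cd72. The chemokine Ccl4 was found in 67.6% of members, 82.1% of the others and 52.4% of the NK-like barcodes, which may transcribe it themselves and give no background share for this gene.

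Across genes, 5335 had at least 20 CPM over all microglial barcodes. A gene was called where the smaller of its pooled levels in the members and the others was at most 0.8 of the larger, with the same direction in 6 of 6 suffixes. By this rule 324 genes (6.07%) were called higher and 408 genes (7.65%) lower in the members, and the median log2 ratio of all 5335 genes was 0.03. The differences were uneven in size. A ratio of 2 or more was reached by 4 of the genes called higher, P2ry12, Sox4, Gimap6 and Actn1 (the last pair named after their values were seen). A ratio of 0.5 or less was reached by 60 of the genes called lower. Without the shared barcode sequences, 296 of the 324 genes called higher and 369 of the 408 called lower were called again, and leaving out 1 suffix at a time gave 296 to 369 genes higher and 379 to 464 lower. Without every barcode that held a UMI of a defining marker of another cell type, 279 and 359 of them were called again. Since the limits acted on these same counts, the calls describe the contrast and are no evidence of it.

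**Figure D3:**
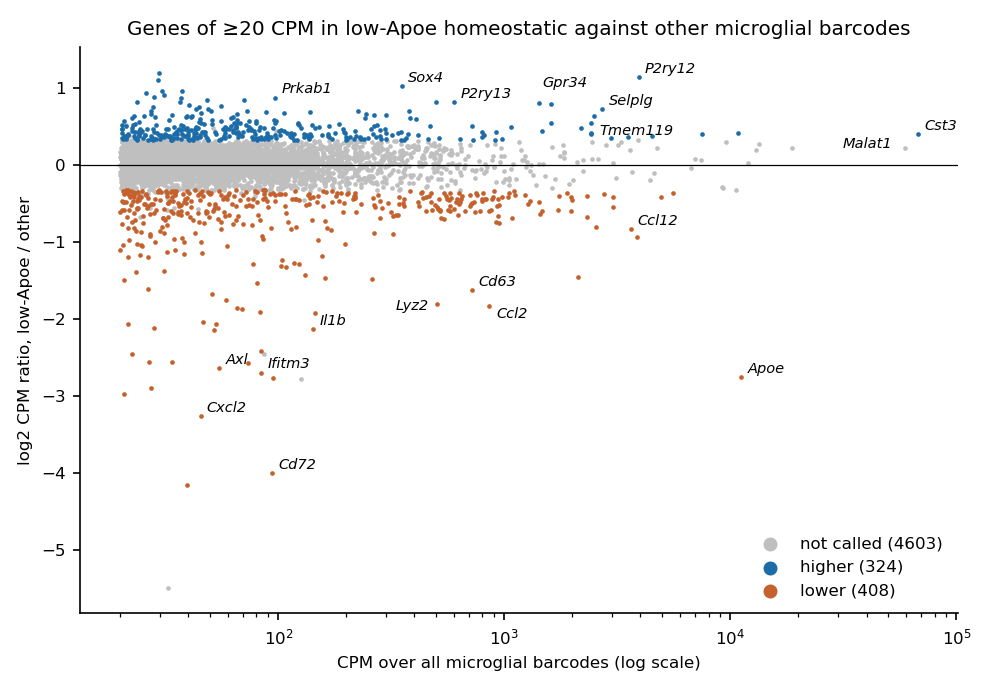
Each point is 1 of the genes compared, with its level over all microglial barcodes (CPM, log-scaled x axis) and the log2 CPM ratio of members to others (y axis); colors mark the 324 genes called higher and the 408 called lower, and Spp1, at 0 in the members, is not drawn. The lower side reaches much further from 0 than the higher side.

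Besides the limit genes, the 12 called genes of at least 50 CPM over all microglial barcodes with the highest ratios were Sox4, Prkab1, Csmd3, Txnip, P2ry13, Dnajb1, Gpr34, Bbs9, Selplg, Ivns1abp, Whrn and Ecscr. Sox4, a transcription factor of progenitor cells that TGF-beta is known to raise, was at 392 to 496 CPM in the members (median 470) and at 156 to 336 CPM in the others (median 240), a ratio of 2.03 (1.98 to 2.08). The suffixes of the members all lay above those of the others. Selplg, the selectin ligand PSGL-1, was at 2880 to 3519 CPM (median 3370) against 1657 to 2562 CPM (median 2035), a ratio of 1.65, again without overlap. Txnip, a thioredoxin inhibitor that limits glucose uptake, was at 525 to 779 CPM (median 594) against 274 to 589 CPM (median 356), a ratio of 1.77, with ranges that overlapped. Prkab1, a regulatory subunit of the energy sensor AMPK, was at 124 against 67.7 CPM (ratio 1.84). Csmd3, a large membrane protein with complement-type domains, was at 89.7 against 49.9 CPM (ratio 1.80), and Ecscr, a small membrane protein, at 275 against 169 CPM (ratio 1.62). Bbs9, a subunit of the complex that carries cargo to cilia, was at 69.4 against 40.9 CPM, Whrn, a scaffold protein, at 61.6 against 37.8 CPM, and Ivns1abp, named for binding an influenza protein, at 465 against 285 CPM.

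Of 35 genes listed for homeostatic identity, all compared, 21 were called higher and 1 lower, with a median log2 ratio of 0.34. The list includes genes of the limits. Beside this list and those below, 6.07% of all 5335 genes were called higher and 7.65% lower, and counts from short lists can come near these shares. Slc2a5, the fructose transporter of microglia, was at 50.4 against 29.4 CPM, without overlap between suffixes. Some classical identity genes differed little. Csf1r, the receptor for the survival factors CSF-1 and IL-34, had a ratio of 1.14. Cx3cr1, the fractalkine receptor, was at 1980 against 1646 CPM and was not called, nor was Olfml3 (1251 against 1192 CPM). Trem2, the lipid receptor, was at 2045 to 2206 CPM in the members and at 1878 to 2227 CPM in the others, ranges that overlapped throughout. Lag3, a checkpoint receptor also found in microglia, was the gene called lower, at 347 against 500 CPM.

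Among 14 identity transcription factors compared, 4 were called higher, Etv5 (84.5 against 58.6 CPM), Maf (121 against 89.2 CPM) and Sall1 (89.2 against 70.9 CPM) among them, and none lower, with a median log2 ratio of 0.16. Spi1, which encodes PU.1, and Irf8 had ratios of 1.03 and 1.04 and were not called. Of 13 genes of the TGF-beta pathway, 4 were called higher and none lower. These were the ligand Tgfb1 (411 against 322 CPM), its receptor chain Tgfbr1 (316 against 243 CPM), and the feedback genes Smad7 (297 against 225 CPM) and Pmepa1 (217 against 150 CPM). Tgfbr2, the second receptor chain, had a ratio of 0.851. Against the barcodes low in both P2ry12 and Apoe, 1 of the 13 genes was still called higher, Pmepa1 (ratio 1.44), and Tgfb1, Tgfbr1 and Smad7 were not, with ratios of 1.19, 1.22 and 1.198. Of 15 identity transcription factors in that comparison, 1 was called higher and 1 lower, beside 2.74% and 5.62% of all 5336 genes.

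The 13 receptors and enzymes of purine and lysophospholipid signaling differed in both directions. P2ry12, P2ry13, Gpr34, the ectonucleotidase gene Entpd1 (145 against 98.8 CPM) and the oxysterol receptor gene Gpr183 (101 against 75.8 CPM) were called higher. The ATP-gated channel gene P2rx4 (110 against 158 CPM) and Gpr84, a receptor for medium-chain fatty acids (145 against 202 CPM), were called lower. Against the barcodes low in both P2ry12 and Apoe, neither P2rx4 (ratio 0.813) nor Gpr183 (1.14) was called. The UDP receptor gene P2ry6 (ratio 0.961) and the channel gene P2rx7 (ratio 1.06) were not called.

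Part of the genes of rapid transcriptional response were also higher. Of 24 immediate early genes compared, 9 were called higher and none lower, and the 25 listed genes summed to 81447 CPM in the members and 68243 CPM in the others. Against the barcodes low in both P2ry12 and Apoe, none of the 24 was called. Fos, part of the AP-1 factor, was at 10255 to 13040 CPM in the members (median 12093) and at 7000 to 11356 CPM in the others (median 9571), so the ranges overlapped. Jun and Junb, its partners, had ratios of 1.21 and 1.23 and stayed under the limit for a call. Klf2, a factor of quiescent cells, was at 4096 against 4695 CPM and was not called. Among 14 heat shock genes and chaperones, 3 were called higher. Dnajb1, a co-chaperone of Hsp70, was at 1210 to 2177 CPM in the members (median 1535) and at 657 to 1500 CPM in the others (median 1011), with a ratio of 1.74. Dnajb4 and Hspa1a were the remaining 2, with ratios of 1.36 and 1.28, but against the barcodes low in both P2ry12 and Apoe the ratio of Dnajb4 was 1.19, not called, and that of Hspa1a 0.897, lower in 6 of 6 suffixes. Of 7 genes of stress and glucocorticoid response, Txnip and Sgk1, a kinase of salt and hormone response, were called higher, the latter at 3021 against 1945 CPM. Tsc22d3 and Fkbp5, both classical glucocorticoid targets, had ratios of 1.07 and 0.925.

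On the lower side, the 12 called genes of at least 50 CPM with the lowest ratios, besides the limit genes, were Cd72, Ifi27l2a, Ifitm3, Axl, Ccl7, Ms4a6c, Fcgr4, Il1b, H2-Aa, Tspo, Cxcl10 and Fam20c. Cd72, an inhibitory receptor better known from B cells, was at 5.37 to 17.9 CPM in the members (median 10.3) and at 72.5 to 288 CPM in the others (median 159), a ratio of 0.0627 (0.0568 to 0.0690). Axl, a receptor for the uptake of dying cells, was at 15.6 against 97.0 CPM, and Tspo, the mitochondrial protein that tracers of neuroinflammation bind, at 62.1 against 235 CPM. Ifi27l2a, an interferon-induced gene, was at 24.95 against 170 CPM, Ccl7, a ligand of CCR2, at 21.8 against 129 CPM, Ms4a6c, a membrane protein of monocytes and macrophages, at 27.2 against 145 CPM, and Fam20c, a kinase of secreted proteins, at 30.2 against 111 CPM. The members of each suffix were below the others of that suffix for all 12 genes.

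Chemokines and cytokines formed a large group on this side. Of 21 compared, 13 were called lower and 1, Tgfb1, higher, with a median log2 ratio of -0.83. Ccl4, an inflammatory chemokine, was at 2318 to 3238 CPM in the members (median 2440) and at 4420 to 5986 CPM in the others (median 4906). Ccl12, a ligand of the monocyte receptor CCR2, was at 2070 to 3102 CPM (median 2590) against 3629 to 5875 CPM (median 4489), also without overlap. Il1b was at 43.5 to 73.9 CPM (median 55.5) against 137 to 321 CPM (median 247). Cxcl2, which draws neutrophils, was at 8.85 against 84.4 CPM, and Cxcl10, which draws T and NK cells, at 35.9 against 134 CPM. Il1a (ratio 0.886) and the NF-kB inhibitor gene Nfkbia (ratio 0.876) were not called. The members were thus not free of chemokine transcripts, with 12707 CPM over the list against 21523 CPM in the others.

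All 15 genes of interferon response that were compared were called lower, with a median log2 ratio of -1.49. Ifitm3, a membrane protein that blocks virus entry, was at 12.9 to 42.1 CPM in the members (median 23.7) and at 63.4 to 259 CPM in the others (median 131). Irf7, the factor that amplifies interferon production, was at 7.12 against 39.1 CPM. Of 11 genes of MHC class I presentation, 4 were called lower, among them B2m, its light chain (2425 against 3137 CPM), and H2-D1 (1395 against 2096 CPM). Against the barcodes low in both P2ry12 and Apoe, 3 of 11 were called lower, and B2m (ratio 0.875) was not called. Of 6 class II genes, 4 were called lower. Their levels turned on the library. Cd74, the class II invariant chain, was at 407 CPM in the members of suffix 1 and at 42.2 to 68.2 CPM in those of the remaining suffixes, with a median of 61.0 CPM. In the others it was at 1435 CPM in suffix 1 and at 134 to 265 CPM elsewhere (median 198 CPM), so its level rested on that library but was lower in the members of each.

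Of 24 genes listed for lipid handling and damage response, 15 were called lower and none higher, with a median log2 ratio of -0.66. Apoe and Spp1 are in this list through the limits. Lyz2, the macrophage lysozyme, was at 230 against 803 CPM, and Cd63, a tetraspanin of late endosomes, at 359 against 1102 CPM. Tyrobp, the signaling partner of Trem2, and Cd9 had ratios of 0.847 and 0.984. Among 28 lysosomal genes, 10 were called lower and none higher. Ctsb, a cysteine protease, was at 1720 to 2023 CPM in the members (median 1873) and at 2847 to 3627 CPM in the others (median 3239), without overlap. Ctsd and Ctss, further proteases, had ratios of 0.801 and 0.819, just inside the limit. Lgmn and Laptm5 had ratios of 1.05 and 1.12.

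Of 7 complement genes, 5 were called lower, C1qb and C1qc of the limit on microglial genes among them, and against the barcodes low in both P2ry12 and Apoe 2 of 7 were. The anaphylatoxin receptor gene C5ar1 was at 45.8 against 111 CPM and C3ar1 at 225 against 302 CPM. Of 14 Fc and pattern receptors, 7 were called lower. Fcgr4 (19.5 against 86.3 CPM), the inhibitory Fcgr2b (189 against 348 CPM) and Tlr2, which senses bacterial lipoproteins (97.2 against 220 CPM), were among them, while Fcgr3 had a ratio of 1.03. Of 14 genes of glycolysis and hypoxia, 6 were called lower, with Gapdh at 220 against 316 CPM and Ldha at 130 against 188 CPM. Of 5 genes of DNA replication and mitosis that reached 20 CPM, Stmn1, which binds tubulin, was called lower (20.4 against 44.5 CPM), but its log2 ratio was 0.0822 against the barcodes with Apoe at 1% or more, and its level in those low in both P2ry12 and Apoe was 71.9 CPM.

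**Figure D4:**
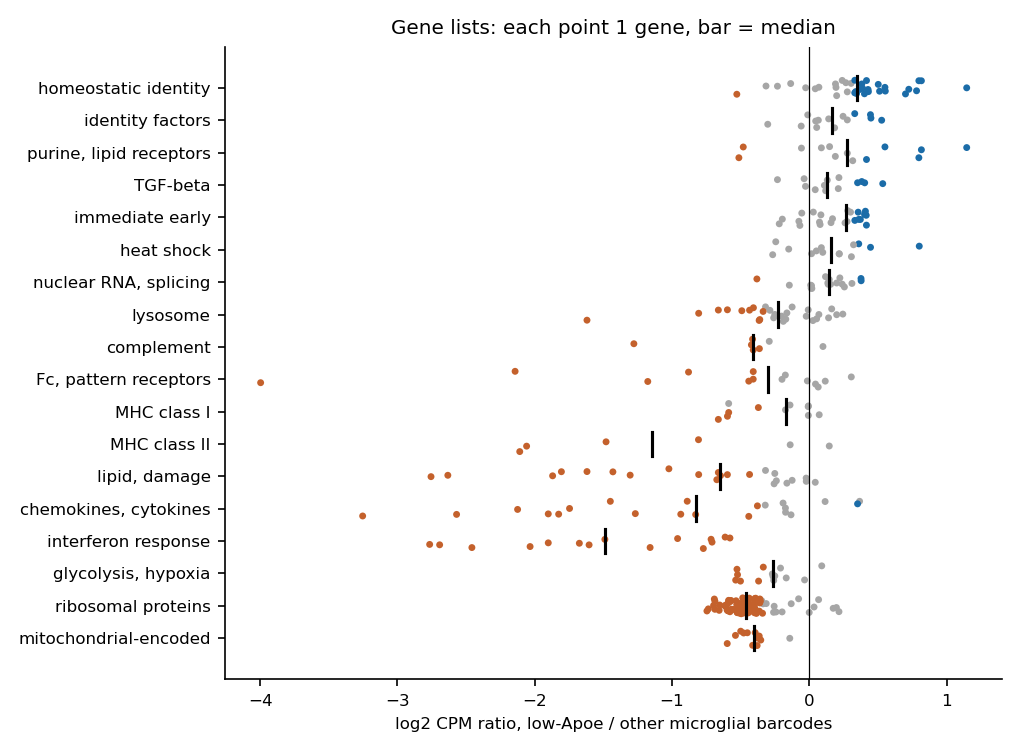
Log2 CPM ratio of members to other microglial barcodes (x axis) for the compared genes of 18 lists (rows); each point is 1 gene, blue called higher, orange called lower and gray not called, and black bars are list medians, with Spp1 not drawn. Interferon response genes all lie below 0, homeostatic identity genes lie mostly above it.

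Constitutive transcripts differed as well. Of 85 ribosomal protein genes compared, 70 were called lower and none higher, and their sum was 40421 CPM in the members and 56033 CPM in the others. In the members the sum ran from 35896 to 50887 CPM over suffixes and in the others from 43684 to 68327 CPM. Of 12 mitochondrially encoded genes, 11 were called lower, with sums of 12093 and 16664 CPM. Against the barcodes low in both P2ry12 and Apoe, 48 of 85 ribosomal protein genes and 3 of 11 mitochondrial genes were called lower. The nuclear RNA Malat1 was at 63759 against 54664 CPM. Of 18 nuclear RNAs and splicing transcripts 2 were called higher, Ddx5 and Hnrnph1, and 1 lower, Neat1. Over all 5335 genes the shares called were 6.07% and 7.65%, so these small counts are not read as a result about the list. Neither Ddx5 (ratio 1.13) nor Hnrnph1 (1.15) was called against the barcodes low in both P2ry12 and Apoe. Neat1 was still called lower there (0.720). A CPM is a share of all UMIs of a set, so a difference in one abundant gene moves the level of every other. With CPM taken outside the 8 limit genes and the mitochondrial genes, 311 of the 324 genes called higher and all 408 called lower were called again.

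The classes outside the members differed from them to unlike degrees. Gpr34 was at 2024 CPM in the members, 1328 CPM in the barcodes low in both P2ry12 and Apoe, 1193 CPM in those with Apoe at 1% or more, and 898 CPM in those with Spp1. Sox4 followed the same order, at 465, 266, 239 and 163 CPM. Cd72 ran the other way, at 11.4, 69.5, 182 and 334 CPM. Ccl12 did not follow this order and was at 4745, 4676 and 4694 CPM in the 3 outside classes, against 2650 CPM in the members.

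Compared only with the 3567 barcodes low in both P2ry12 and Apoe, fewer genes were called. There were 146 higher (2.74%) and 300 lower (5.62%) of 5336. Of the homeostatic identity genes 11 were called higher and none lower, and all 12 interferon response genes compared and 11 of 20 chemokines and cytokines were called lower. None of the 24 immediate early genes was called in either direction, and Fos had a ratio of 1.14. Sgk1 (ratio 1.41), Txnip (1.35) and Dnajb1 (1.36) were still called higher. Apoe itself had a ratio of 0.879, and Lag3 was at 347 against 316 CPM.

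Within the microglial barcodes with Spp1 at 0, levels were then set out by both limit genes at once. Where P2ry12 was at 0.6% of UMIs or more, Gpr34 was nearly flat over Apoe, at 2358 CPM with Apoe under 0.1% (n = 1293) and 2304 CPM with Apoe from 1% to under 2% (n = 326). Where P2ry12 was under 0.15%, it was 1178 CPM (n = 227) and 828 CPM (n = 342) in the same ranges of Apoe. Ccl2 was at 242 and 261 CPM in the P2ry12-rich barcodes and at 1099 and 2156 CPM in the P2ry12-poor ones. Cd72 was at 4.6 and 4.3 CPM and at 76.2 and 247 CPM. For these 3 genes, chosen after the values were seen, the levels in both ranges of Apoe were closer to each other where P2ry12 was high. Others of the 12 genes set out in this way did not follow this, with Txnip at 769 and 531 CPM in the P2ry12-rich and 374 and 292 CPM in the P2ry12-poor barcodes. The 27 P2ry12-rich barcodes with Apoe at 2% or more stood apart, with 1991 CPM of Gpr34, 419 CPM of Ccl2 and 47.6 CPM of Cd72. The shares and the levels come from the same UMIs, and barcodes are not replicates.

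**Figure D5:**
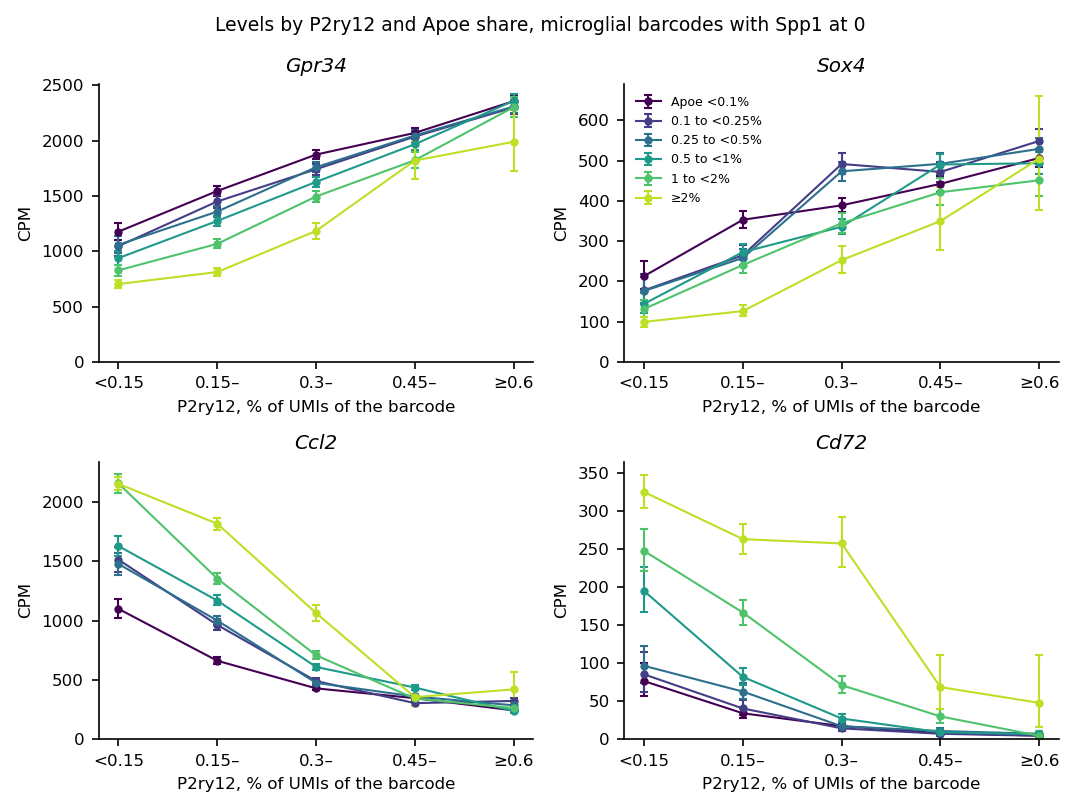
Level (CPM, y axes from 0) of 4 genes in microglial barcodes with Spp1 at 0, by the share of UMIs on P2ry12 (x axis) and on Apoe (colors); error bars are exact Poisson 95% intervals, which cover counting error only. Gpr34 and Sox4 are higher and Ccl2 and Cd72 lower at the highest share of P2ry12 than at the lowest in every range of Apoe.

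Among the members alone, those with more Apoe differed in a graded way. From the 1381 members with no Apoe UMI to the 2476 with 0.5% to under 1%, Txnip went from 837 to 515 CPM, Ivns1abp from 559 to 417 CPM and P2ry13 from 858 to 679 CPM. The sum of the immediate early genes went from 89511 to 76126 CPM. Cst3 was at 64794 CPM in the former and 85366 CPM in the latter, and ribosomal proteins at 36722 and 43738 CPM. Gpr34 was at 2118 and 1949 CPM, and Ccl12 was at 2743 and 2484 CPM. Depth moved with these values, since median UMIs were 2745 and 3420.5. By depth itself, members of 2000 to under 2500 UMIs had 63045 CPM of Cst3, 1884 CPM of Apoe and 73745 CPM of Malat1, and those of 4000 to under 5000 UMIs had 85943, 3662 and 57703 CPM. The 722 members of 5000 UMIs or more turned back in part, with 73685 CPM of Cst3 and 59720 CPM of Malat1. The part of depth in the gradation over Apoe was not tested.

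The members also varied among themselves beyond counting. After thinning to 2000 UMIs, the excess variance of a gene over counting, as a squared coefficient of variation, had a median of 0.0604 over 2673 genes of at least 50 CPM. It was largest for Ttr (321), Cd74 (44.2) and Hspb1 (16.3), and among those that came next were Gm13889, Il1b, Dusp2, Rrad, Gadd45g and H2-Ab1 (8.97). For Ttr, the thyroxine carrier secreted by choroid plexus, the ratio of variance to mean within a suffix ran from 37.9 to 245. For the class II genes the median of this ratio within suffixes was below its value over all members. That of Cd74 was 12.2 over all members but had a median of 4.11 within suffixes (1.53 to 15.2), and that of H2-Ab1 was 2.50 and 1.35 (1.03 to 3.89). For Hspb1, a small heat shock protein, the same ratio stayed between 5.13 and 7.34 in all suffixes. Ccl2 was also uneven, with a ratio of 4.24 to 7.03. Enpp2, another choroid plexus gene, was found in 0.477% of members after thinning, against 10.5% for Ttr.

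Some genes could be read outside the UMIs used for the limits on P2ry12, Apoe and Spp1. When the UMIs of each microglial barcode were split at random, with 1 part used for the limits and the other for the levels, 11190 barcodes met the limits. The ratio of P2ry12 was then 1.87 in place of 2.21, that of Gpr34 1.66, of Sox4 1.89, of Selplg 1.59 and of Dnajb1 1.67. Ratios of 0.161 for Apoe, 0.0726 for Cd72 and 0.243 for Il1b were found on the lower side. Of the genes called, 236 of 324 higher and 329 of 408 lower were called again. Both parts come from the same barcodes and libraries.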

How the data were processed

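Per the labels and the methods, the authors sequenced 6 10x Genomics 3′ v2 libraries of CD45+ cells in 3 batches, aligned reads to mm10 with STAR in Cell Ranger 3.1.0 and aggregated them. The release of the gene annotation is not given in the sources used here. The deposited matrix holds whole-number UMI counts of 31053 genes, without batch correction. The authors' later work in Seurat 3.1.5 was not repeated. Per suffix, 9745192 to 24393841 UMIs were counted. All columns of the matrix were used.

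The filters, including at most 2500 genes as the study's limit for doublets, and the limits for members were applied to these counts with no doublet caller. Levels are summed UMIs of a gene per 1000000 UMIs of a set (CPM). Ratios carry exact conditional 95% intervals, sums Poisson and shares Clopper-Pearson intervals, for counting error only. Named genes are the limit and marker genes, the 12 called genes with the highest and lowest ratios at 50 CPM or more, and the called genes with the 4 highest and 4 lowest ratios and the 3 with most counts in each list, plus the 10 that varied most among members, those said to be chosen later and genes given to show where a list was not called. Members and lists were chosen with earlier results of these data known. Alternatives to each limit, to the scaling, the comparison set and the call are given below. Python 3.11.15, numpy 2.4.6, scipy 1.17.1, pandas 2.3.3 and matplotlib 3.10.9 were used. The calls were also run on simulated Poisson counts with known ratios. These counts had no variation between barcodes, no difference between suffixes beyond depth and no selection of members, so they check the code only. Of 31053 gene identifiers, 30934 were found in GENCODE M21. Clec7a and Lrrc33 were not analysed here. A few genes that the naming rule selects are not reported here.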

Additional observations from a re-analysis of the deposited data

Results flagged for a closer look

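Barcodes outside the comparison carried the same markers. Under 2000 UMIs, 2614 barcodes met the other limits (median 1156 UMIs), with 5521 CPM of P2ry12, 1974 CPM of Gpr34 and 263 CPM of Ccl2, although 39.8% of them had a sequence also found under another suffix. Over 2500 genes, 174 barcodes met the other limits (median 8764.5 UMIs), with 4188, 1470 and 586 CPM, and with 65.9 CPM of Cd72 against 11.4 CPM in the members. Of all filtered barcodes under 2000 UMIs, 78.4% had a sequence found under another suffix, against 3.32% of members.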

How the results depend on the processing

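The value for low-Apoe homeostatic microglia as a share of microglial barcodes of 2000 UMIs or more, 54.3% above, moved by more than its counting interval under most settings. It was 52.0% from 1500 UMIs and 50.8% from 3000 UMIs, 64.0% and 41.5% with P2ry12 at 0.2% and 0.4%, and 42.9% and 60.3% with Apoe under 0.5% and under 2%. It was 55.9% with no limit on Spp1, 56.4% with 5% of UMIs on the 6 microglial genes, 53.0% with no upper limit on genes and 56.3% without shared barcode sequences. Leaving out 1 suffix at a time gave 52.1 to 57.2%. Genes called numbered 495 higher and 699 lower from 5 CPM, 112 and 177 from 100 CPM, 60 and 167 at a ratio of 1.5, and 4 and 60 at a ratio of 2. Against barcodes low in both P2ry12 and Apoe, 146 were called higher. Leaving out 1 suffix at a time gave 296 to 369 genes higher and 379 to 464 lower. All other alternatives left both counts within 1.5 times the values above. Among the 96 named genes that were called, 3 changed sign under an alternative, with the log2 CPM ratio of Stmn1 at 0.0822 against barcodes with Apoe at 1% or more, the log2 CPM ratio of Hspa1a at -0.16 and the log2 CPM ratio of Lag3 at 0.13, the latter 2 against barcodes low in both P2ry12 and Apoe. Of 3069 recomputed values of all 128 named genes, 1333 moved by more than their counting interval. For the IL-33 and pcDNA groups, no paired analysis was possible because the sample labels do not name the suffixes. Members and others could be paired within each suffix, and their ratios within each suffix are given. No test was made on these pairs, because the members were chosen on the same counts. Without barcodes holding granulocyte markers, an alternative chosen after seeing the data, 325 and 409 genes were called.

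The libraries were not assigned to groups, so the spread between mice within a group was not estimated. For a gene at 0 in the members, the expected count is known only to be under about 3 in their 39316115 UMIs. Spp1 is at 0 by the limit itself.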
